A study of Mus musculus with 27 samples.

Results

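In 15 mouse tumors, the levels of 5 T cell genes were averaged into a score, and every other measured gene was examined for whether it followed that score from one tumor to the next within a genotype group. The score was the mean level of Cd3d, Cd3e, Cd3g, Cd2 and Lck on the log2(CPM + 2) scale, with each gene centred on the mean of its own group, where CPM is reads per 1000000 reads counted on genes after scaling by trimmed mean of M-values. The 15 tumors were all RNA-seq samples of the series, which holds 27 samples, and the other 12 (methylated RNA immunoprecipitation and input samples) were not analysed here. They formed 3 groups of 5, named control, Mettl3 KO and Mettl14 KO. All tumors grew from CT26, a colon carcinoma line of BALB/c mice, whose cells carried, after retroviral transduction, a control guide RNA or one that targets Mettl3 or Mettl14, and were mixed with Matrigel then placed under the skin of the flank of BALB/c mice. The protocol in the labels lists antibodies to CTLA-4, to PD-1 and IgG at 200 µg (10 mg/kg) given first on day 11, last on day 23 and in between on days 14, 17 and 20, and the series design names anti-PD-1 therapy for the RNA-seq comparison, which by that text controls and knockouts share. The knockout is in the cancer cells and not in the host, whose immune, vessel and connective tissue cells keep Mettl3 and Mettl14. For the Mettl14 group the titles say Mettl14 while the genotype entry says Mettl4, and grouping used the titles. The labels tie no sample to an animal, so each p-value measures the spread between these samples.

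The 5 score genes encode parts of the T cell receptor complex (Cd3d, Cd3e, Cd3g), an adhesion receptor of T and NK cells (Cd2) and the kinase that starts receptor signalling (Lck). T cells that recognise tumor antigens release interferon-gamma, which switches on antigen presentation and chemokines in neighbouring cells, and PD-1 is a receptor that restrains such T cells. Mettl3 and Mettl14 form the enzyme that places N6-methyladenosine on messenger RNA.

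Libraries held 4.35 to 20.98 M reads on genes (M, 1000000). Mettl3 itself stood at 10.5 to 16.4 CPM in Mettl3 KO and 10.9 to 27.3 CPM in control tumors, and Mettl14 at 50.8 to 83.2 CPM in Mettl14 KO and 54.9 to 96.4 CPM in control tumors. Both ranges overlapped, and a read count over the whole gene does not show whether a guide disrupted it. Control replicate 1 stood apart from the other controls, with 78.6% of its uniquely aligned reads outside genes against 44.3 to 53.8%, while Mettl3 KO tumors had 60.2 to 78.0%. In RNA from whole tumors, more T cells and more of these RNAs per T cell cannot be told apart.

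The score ran from -1.01 to 1.33, a 5.05-fold span in (CPM + 2). Control replicates 1 to 5 scored 0.13, -0.08, 0.26, 0.25 and -0.56. Mettl3 KO replicates 1 to 5 scored 0.70, -0.15, -0.04, -0.02 and -0.49. Mettl14 KO replicates 1 to 5 scored 0.20, 0.25, -0.76, 1.33 and -1.01. The Mettl14 KO group thus held both the highest and the lowest tumor, and 73.9% of the within-group variation of the score, against 16% for Mettl3 KO and 10.1% for control. Of all the variation of the uncentred score over the 15 tumors, 60.9% lay within groups. The tumors were ordered, and the genes selected on their relation to it, by these score values, which are given as a description.

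**Figure D1:**
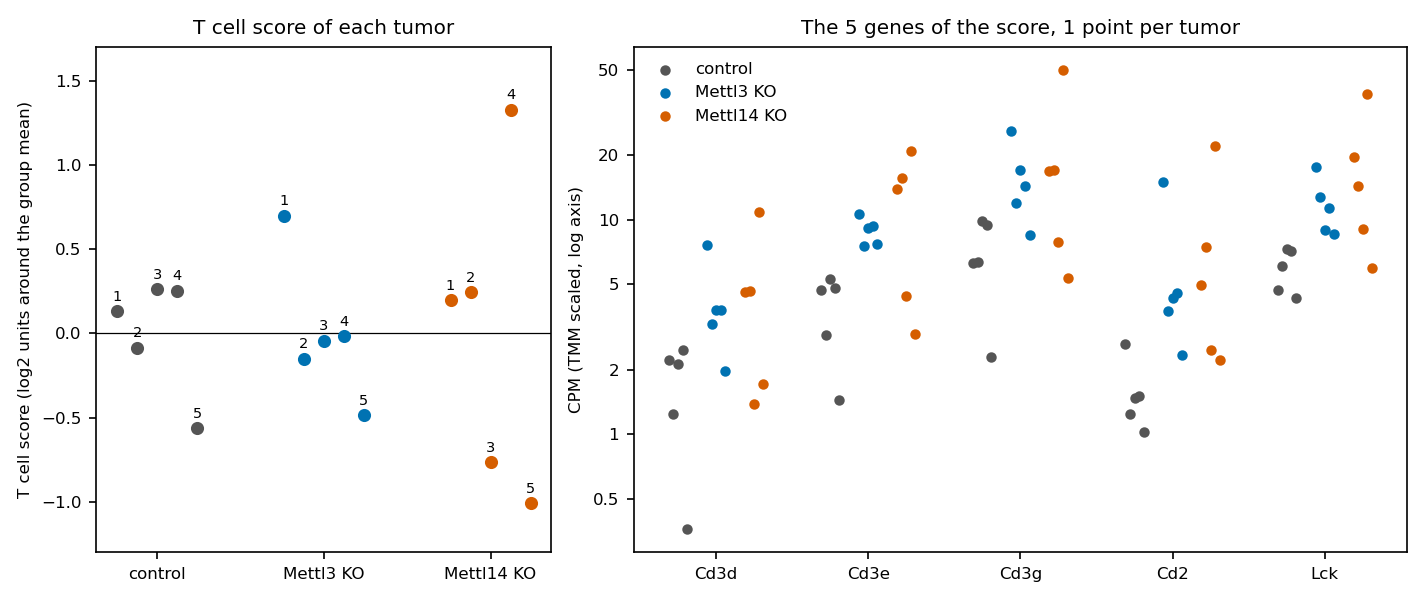
Left, the T cell score of each tumor in log2 units around its group mean (points labelled with the replicate number); right, TMM-scaled CPM of the 5 score genes on a log axis, 1 point per tumor. The Mettl14 KO tumors span -1.01 to 1.33, and replicate 4 of that group is highest for all 5 genes.

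The 5 genes moved together by their choice, with pairwise Pearson r of 0.75 to 0.96 over 10 pairs. Cd3g, the most abundant of them, ranged from 2.28 to 9.92 CPM in control, 8.49 to 25.97 CPM in Mettl3 KO and 5.37 to 49.99 CPM in Mettl14 KO tumors. The 5 genes together held 157 to 1747 reads per library. Cd3d, at a mean of 3.48 CPM, lay under the 4 CPM that other genes needed. The lowest tested gene had a mean of 4.0017 CPM and the highest one left out 3.9999 CPM.

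Of 13455 genes with a mean of at least 4 CPM, 461 rose with the score (3.43%) and 13 fell (0.0966%), by edgeR's quasi-likelihood test of a slope on the score in a model that also held the group (Benjamini-Hochberg adjusted p under 0.05 over all tested genes). A slope is the change of a gene in log2 units for 1 unit of score. The median slope over all tested genes was -0.09, and 4479 of them had a slope above 0. Values after ± are standard errors of the slope unless stated otherwise. Slopes of the 461 rising genes had a median of 0.88, 169 exceeded 1 and 11 exceeded 2. When each group was fitted alone, 341 of the 461 (74.0%) sloped upward in all 3 groups, as did 6.92% of all tested genes. The calls used those same tumors, so this is a description of the called genes.

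The genes were selected on a score whose extremes are single tumors, so the following shares describe that selection and were not compared by a test. Every one of the 461 rising genes was highest, among Mettl14 KO tumors, in replicate 4, the tumor with the top score (27.6% of all tested genes were highest there). In Mettl3 KO, 92.6% of the rising genes were highest in replicate 1, the top-scoring tumor (9.09% of all tested genes). In control, 27.5% were highest in the top-scoring replicate 3 (9.56% of all tested genes). Mettl3 KO replicate 1 also had 71.6% of its uniquely aligned reads outside genes and 47.8% of its gene counts in its 5 most abundant genes, and the part of this in the result was not tested. Of 5 library measures, namely depth, reads outside genes, mitochondrially encoded share, olfactory receptor reads and the share of the top 5 genes, none passed a permutation test of its relation to the score (Pearson r of 0.01, 0.12, -0.25, 0.17 and 0.30, lowest adjusted p = 0.651). Without the 2 tumors farthest from the median score, r was 0.58 for the share of the top 5 genes and 0.35 for reads outside genes, and with 1 tumor left out r for the top 5 genes ran from 0.0848 to 0.50.

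Leaving out tumors changed the count strongly. Without Mettl14 KO replicate 4, 50 genes rose, all of them among the 461. The 4 CPM filter was applied anew in each fit, and 429 of the 461 had a fitted slope without that replicate, all above 0. The rest fell under 4 CPM there and were not tested, so they passed the filter only with that tumor included. Without Mettl14 KO replicate 5, 193 rose, and without Mettl3 KO replicate 1, 299 did. With any other single tumor left out the count lay between 364 and 746, and 746 was reached without control replicate 1. Without the whole Mettl14 KO group 5 genes rose, and these were Ighm, Ccl5, C3 (the central complement protein), Saa3 (an acute-phase protein) and Pla2g2d (a secreted phospholipase). In all, 47 genes stayed called whichever 1 of the 15 tumors was left out, among them Cd8a, Cd8b1, Icos, Pdcd1, Lag3, Cxcr6, Ighm, Jchain, Ciita, Gbp6 and Nos2.

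**Figure D2:**
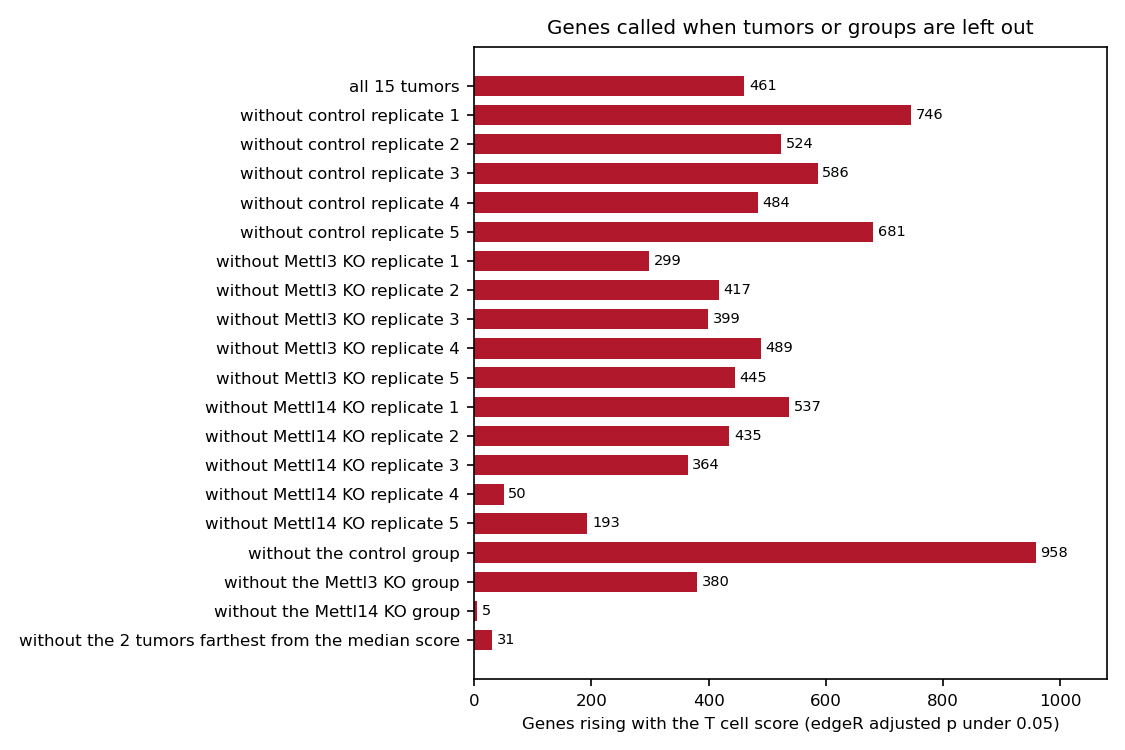
Number of genes rising with the T cell score (horizontal axis, edgeR adjusted p under 0.05) with all 15 tumors, without each tumor in turn, without each group and without the 2 tumors farthest from the median score. The count is 461 with all tumors, 50 without Mettl14 KO replicate 4 and 5 without the Mettl14 KO group.

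T cell genes that had no part in the score followed it closely. Of 20 tested T cell markers outside the score, 19 rose, with a median slope of 1.22 and a median r of 0.91, against a median r of -0.147 over all tested genes. Cd8a (ENSMUSG00000053977, chromosome 6, 71373427 to 71379173, mm10), a chain of the co-receptor of killer T cells, read 5.12, 4.57, 12.5, 12.7 and 2.16 CPM in control replicates 1 to 5. It read 27.0, 15.8, 17.2, 25.7 and 14.8 CPM in Mettl3 KO and 39.2, 24.8, 9.24, 78.6 and 6.90 CPM in Mettl14 KO replicates 1 to 5. The 2 control tumors with the highest scores (replicates 3 and 4) had the highest Cd8a, and Mettl14 KO replicates 3 and 5, at the bottom of the score, fell within the control range. The slope was 1.55 ± 0.22 (adjusted p = 4.87e-05). A permutation of the scores within groups gave Pearson r = 0.92 (raw permutation p = 1e-05, adjusted p = 3.20e-04) and Spearman rho = 0.94 (raw p = 1e-05, adjusted p = 3.20e-04), adjusted over 32 genes, where 1e-05 is the smallest p that 100000 resamples can give. Without the 2 tumors farthest from the median score, Mettl14 KO replicates 4 and 5, r was 0.83. Of the 32 genes, 27 passed this permutation test by Pearson r and 23 by both r and rho. Gzmb, Prf1, Tigit, Col1a1 and Pecam1 did not pass by r.

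Cd4, the co-receptor of helper and regulatory T cells, rose less steeply (slope 1.2 ± 0.20, adjusted p = 2.76e-04) than Cd8b1 (slope 1.67 ± 0.19, adjusted p = 4.03e-06), though that difference was not tested. For Cd8a, the log2 level minus that of Cd4 did not pass a permutation test against the score (Pearson r = 0.33, raw permutation p = 0.277, adjusted p = 0.370 over 4 gene differences). By that permutation test, Cd8a minus Gzmb (r = 0.54, raw p = 0.0075, adjusted p = 0.0150) and Cd8a minus Foxp3 (r = 0.86, raw p = 3.8e-04, adjusted p = 0.00152) passed. Cd8a minus Pdcd1 did not (r = -0.07, raw p = 0.870, adjusted p = 0.870). These 3 genes are described below. Icos, a co-stimulatory receptor, had a slope of 1.47, and Cxcr6, a chemokine receptor of tissue-resident T cells, 1.6. The marker that missed the test was Thy1 (slope 0.65, adjusted p = 0.0618), which fibroblasts express too. Of the 20 markers, 6 were called without Mettl14 KO replicate 4, and the 16 that stayed above 4 CPM without it had a median slope of 1.21. Cd5, Ifng and Cxcr3 lay under 4 CPM. Ifng, which encodes interferon-gamma, ranged from 0.12 to 1.58 CPM in control, 1.02 to 4.09 CPM in Mettl3 KO and 0.71 to 6.03 CPM in Mettl14 KO tumors and was not tested.

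Checkpoint and exhaustion genes rose with the T cell genes, 9 of 12 tested, with a median slope of 0.94. Pdcd1, which encodes PD-1, read 2.76, 2.18, 5.84, 7.14 and 1.80 CPM in control replicates 1 to 5, 16.5, 10.4, 8.14, 12.9 and 9.60 CPM in Mettl3 KO and 22.2, 8.43, 4.00, 55.9 and 2.54 CPM in Mettl14 KO (slope 1.72 ± 0.22, adjusted p = 1.25e-05). Mettl14 KO replicate 4 alone stood above every other tumor by more than the whole span of the rest. Lag3, another inhibitory receptor, had a slope of 1.24 ± 0.23, and Tox, a transcription factor of exhausted T cells, 1.17 ± 0.21. The ligands of PD-1 rose as well, Cd274 by 0.96 ± 0.21 and Pdcd1lg2 by 1.56 ± 0.28 per unit of score. Tigit did not pass (slope 0.26, adjusted p = 0.768). Of the 12 genes, 3 were called without Mettl14 KO replicate 4 and 5 without replicate 5.

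Cytotoxic and NK lymphocyte genes divided. Of 18 tested, 9 rose, among them receptors shared by NK and killer T cells such as Klrk1 (slope 1.09 ± 0.19, adjusted p = 4.40e-04) and Klrc1 (slope 1.58 ± 0.20, adjusted p = 1.25e-05), the chemokine Ccl5 (slope 2.03 ± 0.22, adjusted p = 1.42e-06) and the granule protein Nkg7 (slope 1.40 ± 0.24, adjusted p = 5.03e-04). Fasl, the death ligand of killer cells, rose too (slope 1.06 ± 0.18, adjusted p = 4.40e-04). The granule effectors Gzmb, Prf1 and Gzma and the granzymes Gzmc to Gzmf did not pass. Gzmb, which encodes granzyme B, read 12.1, 45.4, 17.4, 35.3 and 42.7 CPM in control replicates 1 to 5, 33.1, 25.2, 27.4, 23.4 and 19.8 CPM in Mettl3 KO and 65.9, 24.2, 28, 99.3 and 17.7 CPM in Mettl14 KO (slope 0.67 ± 0.26, adjusted p = 0.220). Prf1, which encodes the pore protein perforin, read 22.3, 62.6, 28.9, 68.9 and 79.8 CPM in control, 37.4, 34.7, 41.4, 42.5 and 26.2 CPM in Mettl3 KO and 121, 42.0, 29.4, 169 and 20.0 CPM in Mettl14 KO (slope 0.85 ± 0.31, adjusted p = 0.187). In control tumors both were among the highest in replicate 5, the tumor with the lowest T cell score, and both were lowest in replicate 1. In Mettl14 KO both were highest in replicate 4 and lowest in replicate 5, the ends of the score. Fitted alone, the slope of Prf1 was -1.13 in control and 1.31 in Mettl14 KO, with an unadjusted edgeR p of 0.00632 for the difference between the 3 groups and an adjusted p of 0.575. Gzmc, Gzmd, Gzme and Gzmf had slopes of 0.71 to 0.98 (lowest adjusted p = 0.580). Of the 18 genes, 2 were called without Mettl14 KO replicate 4.

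Regulatory T cell genes gave 3 rising of 6 tested (1 when Mettl14 KO replicate 4 was left out), Ikzf2 (slope 1.05 ± 0.16, adjusted p = 1.13e-04), Il2ra (slope 0.85 ± 0.18, adjusted p = 0.00384) and Ctla4 (slope 1.10 ± 0.20, adjusted p = 7.03e-04), all of which activated conventional T cells can express. Foxp3, the transcription factor that defines regulatory T cells, read 3.81, 2.39, 3.52, 3.16 and 3.67 CPM in control, 4.62, 4.38, 2.25, 3.34 and 3.32 CPM in Mettl3 KO and 5.77, 5.08, 4.14, 7.26 and 4.16 CPM in Mettl14 KO replicates 1 to 5. The groups overlapped and its slope was 0.32 ± 0.18 (adjusted p = 0.626). By permutation within groups, Pearson r = 0.64 (raw permutation p = 0.0227, adjusted p = 0.0280) and Spearman rho = 0.57 (raw p = 0.0435, adjusted p = 0.0561). Without the 2 tumors farthest from the median score its r was 0.41.

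**Figure D3:**
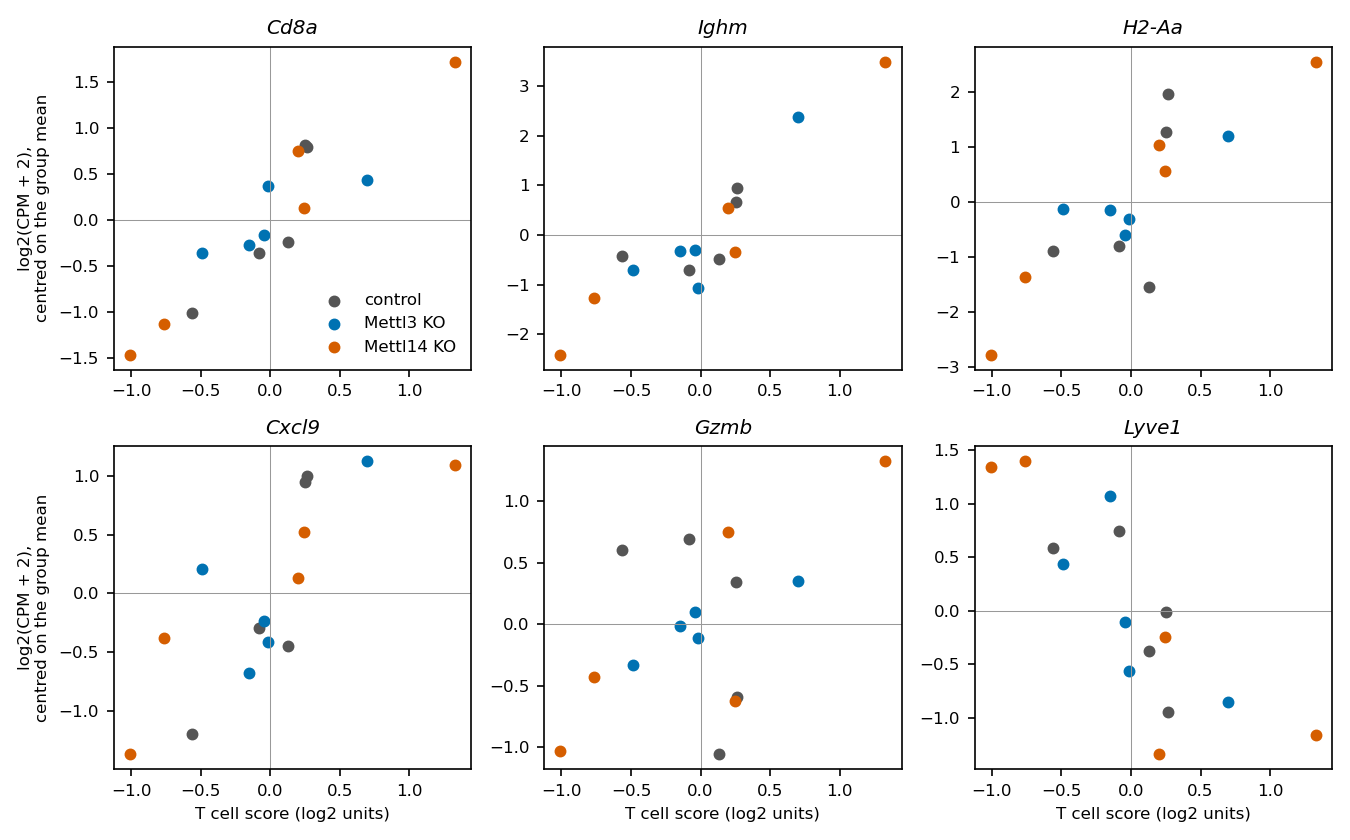
The levels of 6 genes against the T cell score (horizontal axis, log2 units), each point 1 tumor, with the gene's log2(CPM + 2) centred on its group mean on the vertical axis. Cd8a, Ighm, H2-Aa and Cxcl9 climb with the score, Lyve1 descends, and Gzmb climbs in Mettl14 KO while the control points scatter.

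The 3 steepest slopes belonged to antibody genes, Ighg1, Igkc and Jchain. Ighm (ENSMUSG00000076617, chromosome 12, 113418558 to 113422730, mm10), the constant region of IgM, read 3.81, 3.01, 13.6, 10.8 and 4.03 CPM in control, 154, 22.2, 22.5, 12.5 and 16.6 CPM in Mettl3 KO and 48.3, 25.2, 12.3, 385 and 4.46 CPM in Mettl14 KO replicates 1 to 5 (slope 2.52 ± 0.25, adjusted p = 1.42e-06). Mettl3 KO replicate 1 and Mettl14 KO replicate 4, the top tumors of their groups, lay above all others. Igkc, the kappa light chain, read 1.2, 0.934, 0.556, 1.83 and 1.14 CPM in control, 311, 8.87, 5.20, 3.19 and 1.6 CPM in Mettl3 KO and 21.7, 9.10, 4.00, 316 and 1.01 CPM in Mettl14 KO. Here the 5 controls were flat near 1 CPM, and the slope of 3.72 ± 0.60 (adjusted p = 0.00406) came from the knockout groups, at 6.57 in Mettl3 KO and 3.23 in Mettl14 KO against 0.16 in control. Ighg1 (slope 3.85 ± 0.65, adjusted p = 0.00526), Ighg2b (slope 2.60 ± 0.49, adjusted p = 0.0113) and Jchain, the chain that joins IgM and IgA units (slope 3.68 ± 0.42, adjusted p = 2.24e-04), were also highest in those 2 tumors. Reads of related immunoglobulin genes cannot be assigned with certainty. Of the B cell list 4 of 6 tested genes rose. Ms4a1 (slope 1.66) and Pax5 (slope 0.71) did not pass, and 8 of the 14 genes were under 4 CPM. Leaving out Mettl14 KO replicate 4 left 2 of the 6 called (Ighm and Jchain), with a median slope of 3.16 over the 4 still above 4 CPM. Cxcl13, the chemokine that draws B cells into follicles, was among the 10 steepest (slope 2.21 ± 0.34, adjusted p = 0.00182), and so was Slpi, a secreted protease inhibitor (slope 2.75 ± 0.34, adjusted p = 2.76e-04), which was flat in control (slope 0.13).

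All 8 tested genes of MHC class II antigen presentation rose, with a median slope of 1.65, while 3 further genes of the list were under 4 CPM. H2-Aa (ENSMUSG00000036594, chromosome 17, 34282744 to 34287823, mm10), an alpha chain that displays peptides to helper T cells, read 8.27, 15.3, 116, 70.7 and 14.2 CPM in control, 426, 166, 121, 148 and 168 CPM in Mettl3 KO and 320.3, 231, 58.9, 920.1 and 20.7 CPM in Mettl14 KO replicates 1 to 5 (slope 2.14 ± 0.39, adjusted p = 0.00381). Control replicates 3 and 4 lay above the other 3 controls, and Mettl14 KO replicates 3 and 5 fell within the control range while replicate 4 lay above all 14 other tumors. H2-Eb1 (slope 2.25 ± 0.47, adjusted p = 0.0170), H2-Ab1 (slope 1.90 ± 0.37, adjusted p = 0.00574) and Cd74, the invariant chain (slope 1.74 ± 0.44, adjusted p = 0.0399), ran with it, as did the peptide loader genes H2-DMa (1.09), H2-DMb1 (1.56) and H2-DMb2 (1.01). Ciita, the coactivator that class II genes need, rose by 1.39 ± 0.25 (adjusted p = 5.64e-04) and sloped upward in each group. Without Mettl14 KO replicate 4, Ciita alone of the 8 was called, though all 8 sloped upward with a median of 1.83. Without replicate 3 or replicate 5 of that group, 4 were called.

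The upstream 250 bases of H2-Aa (chr17:34287824-34288073, minus strand) and H2-Eb1 (chr17:34305617-34305866, plus strand) are shown because these were the steepest class II genes, taken from RefSeq with build GRCm38.p6 and written 5′ to 3′ up to the transcript start. Capitals mark a match to CTGATTGG, the Y box of class II promoters.
H2-Aa: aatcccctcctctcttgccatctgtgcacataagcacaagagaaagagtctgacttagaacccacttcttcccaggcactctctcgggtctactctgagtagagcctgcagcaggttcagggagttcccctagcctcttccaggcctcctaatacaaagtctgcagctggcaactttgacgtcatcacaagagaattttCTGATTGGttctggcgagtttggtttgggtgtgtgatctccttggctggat
H2-Eb1: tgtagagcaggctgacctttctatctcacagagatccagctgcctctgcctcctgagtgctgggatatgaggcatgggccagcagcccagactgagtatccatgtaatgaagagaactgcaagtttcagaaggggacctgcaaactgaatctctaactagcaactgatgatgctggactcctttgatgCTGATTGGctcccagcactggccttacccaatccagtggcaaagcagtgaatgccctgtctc
The match began 51 bases before the start in H2-Aa and 62 bases before it in H2-Eb1. On either strand, these letters occurred in 4.07% of all 27025 upstream windows, 5.78% of those of tested genes and 3.83% of the 313 rising genes with an entry, so the share in rising genes was not above the background. Among the class II genes that rose, 2 of the 5 with an entry held it.

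Interferon-gamma response genes rose in 15 of 30 tested, and the other 15 also sloped upward, with a median slope of 0.81. Cxcl9, a chemokine that attracts activated T cells, read 22.6, 25.2, 64.7, 62.4 and 12.6 CPM in control, 349, 98.5, 134, 119 and 184 CPM in Mettl3 KO and 175, 229.8, 123, 343 and 60.6 CPM in Mettl14 KO replicates 1 to 5 (slope 1.12 ± 0.24, adjusted p = 0.00473). Its highest values came from the top tumors of both knockouts, and control replicates 3 and 4 exceeded the other controls. Cxcl10, from the same chemokine family, had a slope of 0.77 ± 0.18 (adjusted p = 0.0101). Guanylate-binding proteins, which attack intracellular microbes, were split by the test. Gbp10 (slope 1.17 ± 0.23, adjusted p = 0.00163), Gbp11 (slope 1.11 ± 0.21, adjusted p = 0.00118) and Gbp6 (slope 0.99 ± 0.18, adjusted p = 9.66e-04) passed, while Gbp2 (slope 0.79 ± 0.26, adjusted p = 0.11) and Gbp3 (slope 0.76 ± 0.24, adjusted p = 0.0875) did not. These genes are closely related copies, so the split of reads among them is uncertain. Irf1, a transcription factor at the head of this response, had a slope of 0.73 ± 0.24 (adjusted p = 0.104). By permutation within groups Irf1 passed, with Pearson r = 0.65 (raw permutation p = 0.0387, adjusted p = 0.0459) and Spearman rho = 0.64 (raw p = 0.0334, adjusted p = 0.0486). Its r was 0.34 without the 2 tumors farthest from the median score. Ubd, a ubiquitin-like modifier, rose by 1.13 ± 0.20. Without Mettl14 KO replicate 4 or replicate 5, 4 of the 30 were called, and 27 without control replicate 1 or with the share of reads outside genes as a covariate.

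Type I interferon response genes gave no call. None of 30 passed the edgeR test, 13 had an unadjusted p under 0.05, and all 30 had positive slopes (median 0.41). Called genes numbered 1 under DESeq2's size factors, 4 under library totals, 16 with the share of reads outside genes as a covariate and up to 9 with 1 tumor left out. Ifit3, an antiviral protein gene, came nearest (slope 0.73 ± 0.22, adjusted p = 0.0663). In the 10 control and Mettl3 KO tumors, 8 of the 30 sloped upward with a median of -0.15, against 27 of the 30 interferon-gamma genes with a median of 0.48, a difference between lists that was not tested. All tested genes had a median slope of -0.58 in that fit, with 16.2% above 0, so both lists lay above this background. Of the MHC class I genes 1 of 19 rose, H2-Q7 (slope 1.09 ± 0.20, adjusted p = 8.03e-04), and the classical H2-K1 (slope 0.38) and H2-D1 (slope 0.27) and their partner B2m (slope 0.17) did not pass. With the share of reads outside genes as a covariate 12 of the 19 were called, and up to 5 with 1 tumor left out. The class II and class I lists share tumors and model, and their difference was not tested.

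The upstream 250 bases of Cxcl10 (chr5:92348890-92349139, minus strand) and Gbp5 (chr3:142496684-142496933, plus strand; slope 0.77 ± 0.21, adjusted p = 0.0400) are shown as 2 rising interferon-gamma genes that hold the core of the interferon-stimulated response element (GAAA, any 2 bases, GAAA), marked in capitals on either strand (RefSeq, GRCm38.p6, 5′ to 3′).
Cxcl10: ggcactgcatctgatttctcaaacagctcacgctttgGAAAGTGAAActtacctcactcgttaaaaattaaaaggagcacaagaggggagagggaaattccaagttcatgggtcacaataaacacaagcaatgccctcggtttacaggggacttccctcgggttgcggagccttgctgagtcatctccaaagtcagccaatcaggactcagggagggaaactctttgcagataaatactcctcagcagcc
Gbp5: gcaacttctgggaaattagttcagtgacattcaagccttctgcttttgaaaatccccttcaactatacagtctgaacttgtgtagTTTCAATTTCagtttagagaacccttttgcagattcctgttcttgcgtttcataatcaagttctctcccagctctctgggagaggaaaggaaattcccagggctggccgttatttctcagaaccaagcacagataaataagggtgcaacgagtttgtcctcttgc
The match began 213 bases before the start in Cxcl10 and 165 bases before it, on the other strand, in Gbp5. It occurred in 3.04% of all windows, 2.86% of those of tested genes, 7.03% of the 313 rising genes with an entry and 4 of the 9 rising interferon-gamma genes with an entry. A second motif, TTCNNNGAA (the gamma-activated site, either strand), occurred in 7.18% of all windows, 5.99% of those of tested genes and 9.90% of rising genes. These are descriptions of letters in a window and were not tested.

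Chemokine and cytokine genes rose in 11 of 21 tested. Ccl3 (1.44), Ccl4 (1.59) and Ccl8 (1.66), attractants of T cells and monocytes, and Cxcl12 (slope 1.49 ± 0.23, adjusted p = 1.52e-04), a stromal chemokine, were among them, as were the receptors Il7r (slope 1.33 ± 0.19, adjusted p = 6.43e-05) and Il21r (slope 0.91 ± 0.16, adjusted p = 6.94e-04). The monocyte attractants Ccl2 (slope 0.00), Ccl7 (0.09) and Ccl12 (-0.22) did not pass. Icam1, the adhesion molecule that lymphocyte integrins bind, rose (slope 1.02 ± 0.18, adjusted p = 4.40e-04), with Selplg and Itga4, and 9 of 12 trafficking genes did not pass. Without Mettl14 KO replicate 4, 2 of the 21 chemokine and cytokine genes and none of the 12 trafficking genes were called. Without replicate 5, 7 and 1 were called.

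Myeloid genes followed the score in part. Of 12 dendritic cell genes 4 rose, including Xcr1, the chemokine receptor of cross-presenting dendritic cells (slope 1.02 ± 0.24, adjusted p = 0.00953), and Itgax (slope 1.23 ± 0.19, adjusted p = 1.72e-04). H2-DMb2, counted among the class II genes too, was another. Flt3, the receptor for a growth factor of these cells, did not pass (slope 0.79 ± 0.28, adjusted p = 0.180). By permutation within groups Flt3 gave Pearson r = 0.61 (raw permutation p = 0.0138, adjusted p = 0.0192) and Spearman rho = 0.475 (raw p = 0.0923, adjusted p = 0.109). Of 20 macrophage and monocyte genes 6 rose. Adgre1, which encodes F4/80, read 25.3, 64.4, 77.8, 73.3 and 64.6 CPM in control, 119, 65.8, 62.0, 52.1 and 63.5 CPM in Mettl3 KO and 87.8, 78.3, 77.8, 266 and 45.4 CPM in Mettl14 KO replicates 1 to 5 (slope 0.81 ± 0.20, adjusted p = 0.0175). Csf1r (slope 0.48) did not pass, nor did Mrc1 (-0.31) and Cd163 (-0.02), genes of resident and alternatively activated macrophages. Ly6c2, of inflammatory monocytes, was the steepest of the list (slope 1.37 ± 0.20, adjusted p = 6.76e-05). Of 8 neutrophil genes 6 rose, with Csf3r, the receptor for their growth factor, at 1.05 ± 0.17 (adjusted p = 1.62e-04), and S100a8 at 1.07 ± 0.22. S100a8 reached 24.7 CPM in Mettl14 KO replicate 4 and no more than 5.69 CPM elsewhere. Ly6g and Mmp8, which define neutrophils, were under 4 CPM. A gene under 4 CPM in a fit was not tested in it, and S100a8 had a slope in 14 of the fits without 1 tumor. Genes not called below can therefore include genes not tested. When Mettl14 KO replicate 4 was left out, none of the macrophage genes, none of the neutrophil genes and 1 of the dendritic cell genes was called. Without replicate 5 these counts were 2, 3 and 2, and without Mettl3 KO replicate 1 they were 2, 4 and 4. Other settings gave more calls: with the share of reads outside genes as a covariate 17 of the 20 macrophage, 5 of the 8 neutrophil and 9 of the 12 dendritic cell genes were called, and with 1 tumor left out up to 11, 6 and 8. Of 20 signalling genes common to all leukocytes 9 rose, including Ptprc, which encodes CD45 (slope 0.82), of which none was called without Mettl14 KO replicate 4, 1 without replicate 5, 3 without Mettl3 KO replicate 1, 15 at most with 1 tumor left out and 16 with the covariate.

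Connective tissue genes rose in 6 of 17 tested. Fitted in each group alone, 1 of the 17 kept the same sign in all 3 groups, as did 4821 of all 13455 tested genes. Mmp2, a matrix protease (slope 1.13 ± 0.23, adjusted p = 0.00263), Postn (slope 1.40 ± 0.32, adjusted p = 0.0217) and Lum (slope 1.37 ± 0.26, adjusted p = 0.00339), both matrix proteins, passed, while Col1a1, the main fibrillar collagen, did not (slope 0.60 ± 0.44, adjusted p = 0.752). Mmp2 read 82.9, 17.4, 35.9, 18.1 and 24.5 CPM in Mettl3 KO and 61.8, 51.9, 15.6, 152 and 24.1 CPM in Mettl14 KO replicates 1 to 5, again highest in replicate 1 and replicate 4. In control, Mmp2 was not highest in the top-scoring replicate 3. Leaving out Mettl14 KO replicate 4 left none of the 17 called, 2 without replicate 3, 3 without replicate 5 and 2 without Mettl3 KO replicate 1, while 12 were called with the covariate and up to 9 with 1 tumor left out. Lpl, a lipase of adipocytes and macrophages, rose (slope 1.53 ± 0.23, adjusted p = 8.95e-05), whereas Plin4 and Fabp4 of the same adipocyte list had slopes of 0.04 and -0.01, with 7 of the 10 genes under 4 CPM.

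Other gene groups gave no call in either direction. The 12 endothelial genes had a median slope of 0.06, with Pecam1 at 0.15 ± 0.20 (adjusted p = 0.863), and 0 had an unadjusted p under 0.05. All 25 cell cycle genes had negative slopes (median -0.32), 2 with an unadjusted p under 0.05, and Mki67, a proliferation marker, had -0.48 ± 0.24 (adjusted p = 0.504). By permutation within groups Mki67 gave Pearson r = -0.53 (raw permutation p = 0.0130, adjusted p = 0.0189) and Spearman rho = -0.59 (raw p = 0.0208, adjusted p = 0.0350), and r was -0.66 without the 2 farthest tumors. In the slope fit without those 2 tumors, all tested genes had a median of -0.31, with 23.1% above 0. The 10 skeletal muscle genes all sloped downward (median -0.92) without a call, and the sum of the 12 genes in the list was 56.2 to 247 CPM in Mettl14 KO, 147 to 4623 CPM in Mettl3 KO and 303 to 1552 CPM in control tumors. In Mettl3 KO that sum was lowest in replicate 1 and highest in replicate 5, the top and bottom of the score, and its part in the other results was not tested. The 10 mitochondrially encoded genes had a median slope of -0.80, with 6 at an unadjusted p under 0.05. Hypoxia and glycolysis (20 genes, median 0.11), TGF-beta and mesenchymal (16, -0.06), ribosomal protein (20, -0.22), nuclear oxidative phosphorylation (19, -0.09), unfolded protein response (12, -0.07), p53 target (11, -0.18), erythroid (5, -0.38) and epithelial genes (4, -0.29) had no call. All 11 keratinocyte genes were under 4 CPM, with a sum of 6.40 to 44.7 CPM per tumor. The cell cycle, muscle and mitochondrial medians were below 0 under DESeq2's size factors and under library totals too, but the replicate block moved the muscle and cell cycle medians toward 0.

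**Figure D4:**
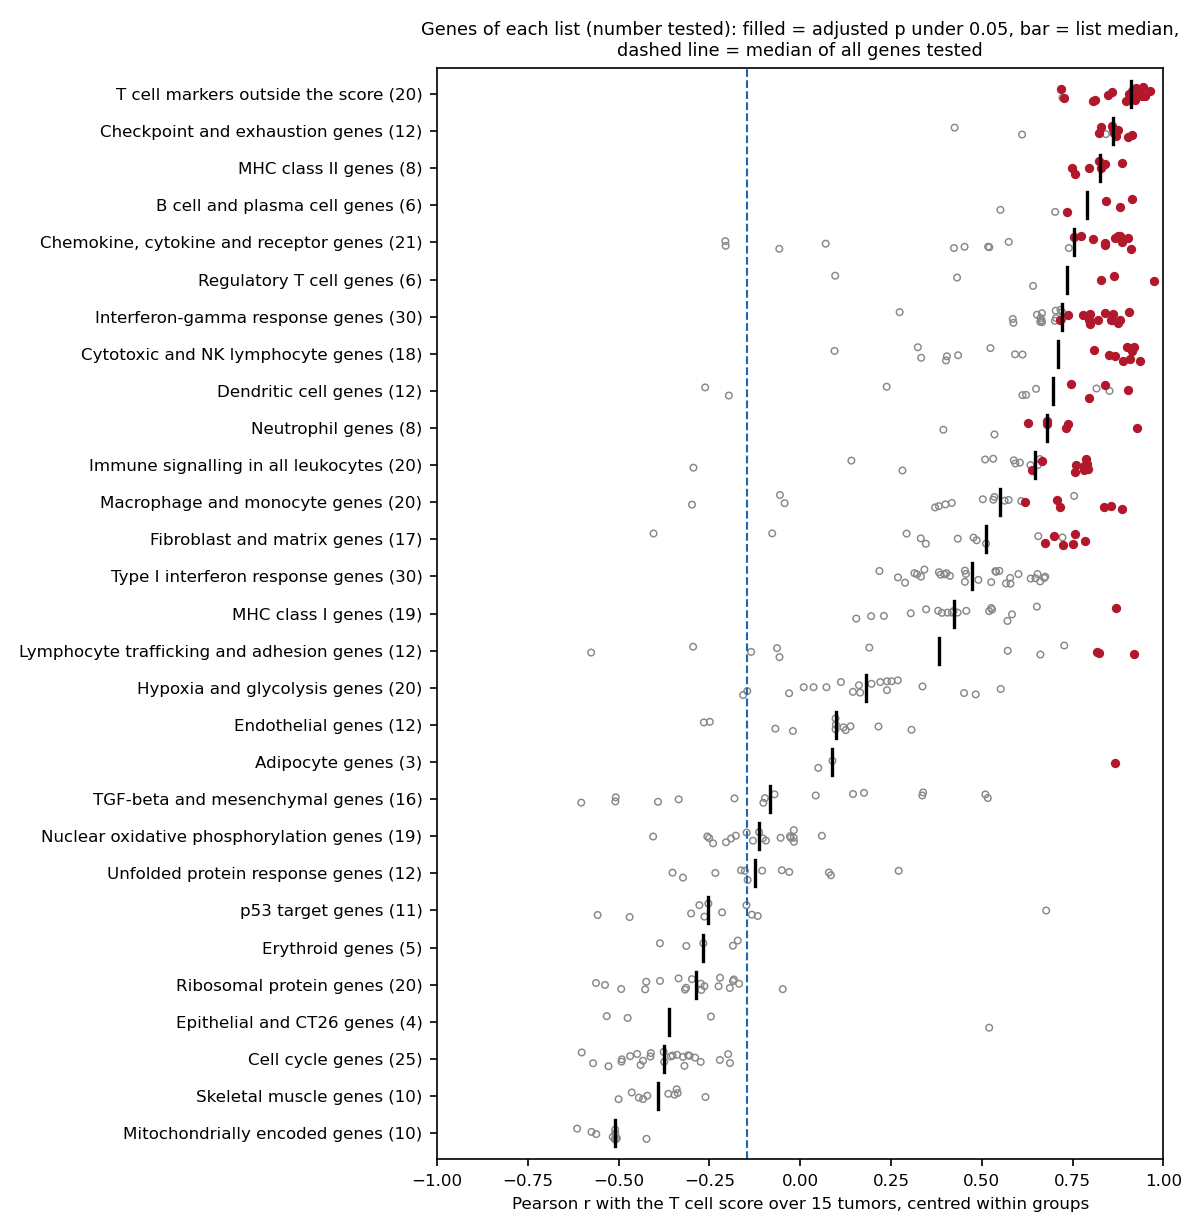
Pearson r with the T cell score over 15 tumors (horizontal axis) for each tested gene of 29 lists, ordered by list median (black bars); filled points passed adjusted p under 0.05, and the dashed line is the median of all tested genes (-0.147). T cell, checkpoint and MHC class II lists lie at the right, and cell cycle, muscle and mitochondrially encoded lists at the left with no filled point.

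Of the 13 falling genes, 12 sloped downward in all 3 groups, as did 28.9% of all tested genes. Lyve1 (ENSMUSG00000030787, chromosome 7, 110850607 to 110863239, mm10), a hyaluronan receptor of lymphatic vessels and some resident macrophages, read 23.5, 53.5, 15.1, 30.8 and 47.9 CPM in control, 2.49, 15.1, 5.55, 3.49 and 8.98 CPM in Mettl3 KO and 3.63, 10.0, 35.7, 4.40 and 34.3 CPM in Mettl14 KO replicates 1 to 5 (slope -1.50 ± 0.27, adjusted p = 0.00132). Mettl14 KO replicates 3 and 5, the lowest in score, held the highest values of their group, and its slope was -1.51, -1.90 and -1.45 in the 3 groups alone. Car6, a carbonic anhydrase (slope -1.16 ± 0.29, adjusted p = 0.0207), Dhrs9, a dehydrogenase of retinoid and steroid alcohols (slope -0.93 ± 0.20, adjusted p = 0.00523), Cbr2, a carbonyl reductase (slope -0.85 ± 0.23, adjusted p = 0.0400), and E2f8, a cell cycle repressor (slope -0.82 ± 0.24, adjusted p = 0.0465), also fell. Mtcl1, Naa11, Mum1l1, P2rx3 and Lancl3 also fell, with slopes of -0.85 to -0.74, and so did the gene models Gm12666 and Gm48792. Sox9, a transcription factor of progenitor cells in the gut, fell as well (slope -0.73 ± 0.19, adjusted p = 0.0265). The falling count was 2 to 57 with 1 tumor left out, 0 without the Mettl14 KO group and 433 by DESeq2.

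**Figure D5:**
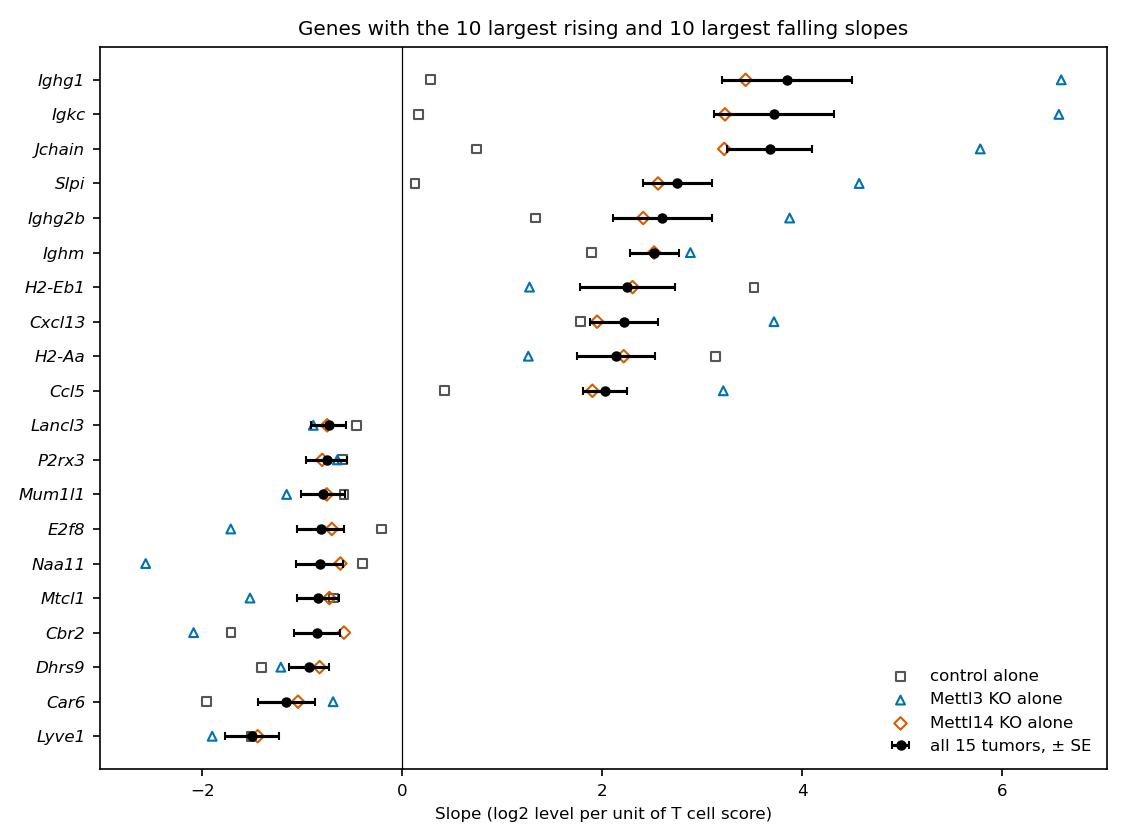
Slope on the T cell score (log2 units per unit of score, horizontal axis) for the 10 rising and 10 falling genes of largest slope that kept 1 sign in all 3 groups, gene models left out: filled circles with bars give the fit to all 15 tumors ± SE, open symbols the fit within each group alone. Ighg1, Igkc and Slpi rise in the knockout groups with slopes of 0.28, 0.16 and 0.13 in control, while H2-Aa and H2-Eb1 are steepest in control.

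Whether slopes differed between the 3 groups was tested with an interaction term. No gene passed (0% of 13455, lowest adjusted p = 0.177), 549 had an unadjusted p under 0.05, and DESeq2's likelihood ratio test called 13. The missing call does not show that the slopes were equal, since the control score spanned only 0.83 units.

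The score was finally used to compare knockouts with control at equal T cell level. Mettl3 KO differed from control in 1113 genes (8.27%) without the score, 121 higher and 992 lower, and in 5 genes (0.0372%) with the uncentred score in the model. Library measures moved with this comparison: reads outside genes were 60.2 to 78.0% in Mettl3 KO against 44.3 to 53.8% in control replicates 2 to 5, and olfactory and vomeronasal receptor reads 1438 to 4895 CPM against 209 to 738 CPM. With the share of reads outside genes as a covariate, 0 genes differed without the score (1265 at an unadjusted p under 0.05) and 28 at equal score. Mettl14 KO differed in 88 genes (0.654%), 86 higher and 2 lower, and in 0 genes (0%) at equal score, where 222 had an unadjusted p under 0.05 and DESeq2 called 33. The 5 genes that kept a difference in Mettl3 KO were Ubd, difference 1.79 ± 0.33 log2 units at equal score, Apol6, difference 2.06 ± 0.38, Dhrs9, difference -1.93 ± 0.34, Per2, difference -1.92 ± 0.36, and Gm25788, difference -2.28 ± 0.40 (SE, adjusted p = 0.0245 each). Per2 is a core gene of the circadian clock. These counts hung on single libraries: without control replicate 1 the Mettl3 KO counts were 8853 and 5226, and without control replicate 2 they were 5 and 0. The split of higher against lower calls also moved, from 121 and 992 to 307 and 3746 under DESeq2's size factors and 61 and 45 under library totals. The score differed between groups, with uncentred means of 2.44 for control, 3.32 for Mettl3 KO and 3.44 for Mettl14 KO tumors, so the model removes any genotype effect that runs with T cell RNA.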

How the data were processed

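RNA-seq of 15 tumors (75 nt single reads) was deposited as 2 count tables, whole-number read counts per gene that the authors made. The submitters' processing notes name cutadapt 1.18, HISAT2 2.1.0, HTSeq 0.11.2, DESeq2 and mm10, without roles. The 5 control columns were identical in both tables and used once. The authors' deposited fold change tables were not used. The tables list 54752 genes. Rows that name no gene held 56.8 to 86.2% of reads and were left out of totals. Libraries were scaled by TMM in edgeR 4.0.16 (R 4.3.3). Genes with a mean of at least 4 CPM were tested with edgeR's robust quasi-likelihood test of a slope on the within-group score plus group, of group by score, and of group with and without the uncentred score, with Benjamini-Hochberg adjustment over 13455 genes (the 5 score genes left out) at 0.05. The code was tested on counts simulated with known slopes. It recovered 66% of genes with a slope of 1 and 64% of those with -1. For slopes of 0.5 and -0.5 it recovered 4% and 2%, so a missing call does not show that a gene or list has no such slope. Correlations of 32 fixed genes, 5 library measures and 4 gene differences used 100000 two-sided permutations of the score within groups, adjusted within each family.

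Genes were named from a fixed set of 35, the 10 largest rising and falling slopes of 1 sign in all 3 groups (gene models left out) and 3 genes of highest absolute r per list. Other list members were picked as examples after their values were seen. Members, lists and tests were chosen with earlier results of these data known. Of 30 lists, 29 had a tested gene. Some genes, among them Ctla4, Cd274, Thy1 and H2-DMb2, stood in more than 1 list, so the tallies of lists are not separate. Alternatives were DESeq2 1.42.0, limma 3.58.1 voom, other scalings, filters, pseudocounts and score genes, thinned counts, a covariate, a replicate block, and leaving out tumors or groups. The smallest chi-square per gene between replicates was 9.14 over 30 pairs, so no pair agreed within counting noise. Motifs were searched in the 250 bases before each RefSeq gene start (GRCm38.p6). Some single-gene values are not reported here.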

Additional observations from a re-analysis of the deposited data

Results flagged for a closer look

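In 432 comparisons of 5 tumors of a group, 29 values stood apart from the other 4 of their group by Dixon's criterion, which chance alone meets in about 1 of 20 groups. Many of the genes compared had been named for their relation to the score. That rate therefore does not apply to tumors at the ends of the score, and the flags are a description. Mettl3 KO replicate 1 gave 11 of them. It was the highest of its group for Ccl5 (40.4 CPM), H2-Aa (426 CPM), H2-Eb1 (331 CPM), Ighm (154 CPM), Igkc (311 CPM), Ighg2b (27.7 CPM), Jchain (90.7 CPM), Slpi (43.2 CPM), Adgre1 (119 CPM) and Aif1 (55.5 CPM), and the lowest for Dhrs9 (8.72 CPM). Mettl14 KO replicate 4 was the highest of its group for S100a8 (24.7 CPM), Ighg2b (47.5 CPM), Il1b (144 CPM), Lum (73.5 CPM) and Tpsb2 (58.2 CPM).

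Control replicate 1 had 78.6% of its uniquely aligned reads outside genes and 5578 CPM on olfactory and vomeronasal receptor genes, above the other controls. It was the lowest control for Adgre1 (25.3 CPM), E2f8 (43.3 CPM), Ms4a7 (17.3 CPM), Rtp4 (8.14 CPM), Cox4i1 (64.2 CPM) and Sdf2l1 (4.20 CPM). Control replicate 5 was the highest control for Car6 (63.1 CPM) and the lowest for Ikzf2 (7.09 CPM). Mettl3 KO replicate 4 was the lowest of its group for Tek (4.86 CPM) and Acta2 (5.32 CPM), and Mettl14 KO replicate 5 the highest of its group for Acta1 (6.59 CPM).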

How the results depend on the processing

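The count of 461 rising genes was 722 under library totals, 1193 by DESeq2, 1054 with the share of reads outside genes as a covariate, 31 without the 2 tumors farthest from the median score, 958 without control, 5 without Mettl14 KO and 50 to 746 with 1 tumor left out. The 13 falling genes became 31 under DESeq2's size factors in edgeR, 87 under library totals, 5 with filterByExpr, 5 at 1 CPM, 4 unfiltered, 433 by DESeq2, 22 with 5 other T cell genes as the score, 200 with the covariate, 32 with thinned counts, 2 without the 2 farthest tumors, 154 without control, 4 without Mettl3 KO, 0 without Mettl14 KO and 2 to 57 with 1 tumor left out. The 0 genes whose slopes differed between groups became 13 by DESeq2, 2 with a pseudocount of 0.5, 1 without the 2 farthest tumors, 10 without Mettl3 KO, 5 without Mettl14 KO and 0 to 7 with 1 tumor left out. The cause was not tested for any of these.

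The 1113 Mettl3 KO differences without the score became 4053 under DESeq2's size factors, 106 under library totals, 31 with filterByExpr, 35 at 1 CPM, 87 unfiltered, 182 by voom, 0 with the covariate and 5 to 8853 with 1 tumor left out. At equal score the 5 became 0 under library totals, filterByExpr, 1 CPM, no filter, voom and other T cell genes, 160 by DESeq2, 28 with the covariate and 0 to 5226 with 1 tumor left out. The 88 Mettl14 KO differences became 43 under DESeq2's size factors, 287 under library totals, 32 with filterByExpr, 38 at 1 CPM, 727 by DESeq2, 32 by voom, 332 with the covariate and 0 to 472 with 1 tumor left out. At equal score the 0 became 33 by DESeq2, 1 with the covariate and 0 to 5 with 1 tumor left out.

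With the replicate number as a block, 53 genes rose (52 of them among the 461), 0 fell, 5 differed in slope between groups, and 244 and 0 differed in Mettl3 KO without and at equal score. The numbers share no stated origin: over 15 same-numbered pairs r ran from -0.65 to 0.55, with 5 above 0.1. With the block the median slope was -0.00475 for the muscle list and -0.09 for the cell cycle list, with 4 of 10 and 5 of 25 genes above 0, while the median of all genes moved up by 0.19. The block turned the slopes of Fabp4 (0.49), Dnajb9 (0.23), Hsp90b1 (0.16), Atp5b (0.13), Ndufs1 (0.00775), Cox4i1 (0.15), Cdh5 (0.25) and Flt1 (0.12), and r for reads outside genes (-0.358) and olfactory reads (-0.289).

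Other turns of sign were in values with no call. Fabp4 had slopes of 0.0125 under DESeq2's size factors, 0.13 by DESeq2, 0.0451 by voom, 0.0626 with other T cell genes, 0.0807 with the covariate, 0.0841 without control, 0.0335 without Mettl3 KO and -0.22 to 0.17 with 1 tumor left out. Slc4a1 had 0.12 under library totals and 0.15 without the 2 farthest tumors, Flt1 0.000605 by DESeq2, and Plin4 -0.11 with thinned counts, -0.44 without Mettl14 KO and -0.14 to 0.27 with 1 tumor left out. Without the 2 farthest tumors Pecam1 (-0.24, r -0.372), Sdf2l1 (-0.0241) and Acta2 (-0.0496) turned. Without Mettl14 KO the slopes of Col1a1 (-0.37), Tek (-0.0132), Gzmb (-0.12), Dhx58 (-0.0537), Pecam1 (-0.51), Pfkp (-0.19), Sdf2l1 (-0.11), Acta2 (-0.52), Prf1 (-0.31), Ankrd37 (-0.26), Tigit (-0.0657) and Bnip3 (-0.16) turned, with r of -0.109 for Gzmb, -0.209 for Prf1, -0.062 for Tigit, -0.213 for Col1a1 and -0.477 for Pecam1. The median slope of all tested genes moved too, from -0.09 in the main fit to -0.58 without Mettl14 KO and -0.31 without the 2 farthest tumors. Without Mettl14 KO, 16.2% of all tested genes had a slope above 0, against 99.8% of the rising genes with a fitted slope. The part of the shift of the median in these turns was not tested. With 1 tumor left out Pecam1 ran from -0.14 to 0.25 (r -0.158 to 0.340) and Sdf2l1 from -0.0347 to 0.39. For reads on genes r was -0.049 under DESeq2's size factors, -0.200 under library totals, -0.027 with the pseudocount, -0.043 without Lck, -0.192 without the 2 farthest tumors, -0.424 without Mettl14 KO and -0.162 to 0.140 with 1 tumor left out. The top 5 genes' share gave -0.053 without Mettl3 KO and the mitochondrial share 0.019 without Mettl14 KO. The tests need a mean of 4 CPM, and the 5 score genes together held as few as 157 reads in a library.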

Other observations

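The genes below were picked because their values were seen to rise, so they stand for no list and no tally of a cell type was made. Among genes known from mast cells, those that rose with the T cell score by edgeR's adjusted test included the proteases Tpsb2 (slope 1.39 ± 0.19, adjusted p = 2.73e-05), Tpsab1 (slope 1.64 ± 0.29, adjusted p = 0.00276), Cma1 (slope 1.24 ± 0.23, adjusted p = 0.00130), Mcpt4 (slope 1.22 ± 0.28, adjusted p = 0.0197) and Cpa3 (slope 1.26 ± 0.25, adjusted p = 0.00435), the histamine enzyme Hdc (slope 0.93 ± 0.20, adjusted p = 0.00380) and the receptor Mrgprb1 (slope 1.46 ± 0.21, adjusted p = 7.13e-05). Without Mettl14 KO replicate 4 the slopes were 0.86 for Tpsb2, 0.90 for Tpsab1, 0.76 for Cma1, 0.42 for Mcpt4, 0.57 for Cpa3 and 0.47 for Hdc, and none of these 6 was called. Mrgprb1 had a slope in 14 of the fits without 1 tumor (1.41 to 1.51). No value of it without that replicate is given here, and a gene under 4 CPM in a fit was not tested in it. Tpsb2 read 3.28, 2.70, 5.38, 3.86 and 2.95 CPM in control, 16, 12.6, 7.97, 6.38 and 4.80 CPM in Mettl3 KO and 8.94, 8.70, 7.17, 58.2 and 4.06 CPM in Mettl14 KO replicates 1 to 5. The following genes of arginine use also rose, Nos2, the inducible nitric oxide synthase (slope 1.43 ± 0.23, adjusted p = 2.43e-04), Ass1, which rebuilds arginine (slope 1.14 ± 0.17, adjusted p = 1.17e-04), and Slc7a2, an arginine transporter (slope 1.10 ± 0.18, adjusted p = 2.59e-04), and all 3 were called in each fit without 1 tumor. The secreted and matrix protein genes Pi16 (slope 1.17 ± 0.23, adjusted p = 0.00340), Dpt (slope 1.02 ± 0.24, adjusted p = 0.0130), Mfap4 (slope 1.5 ± 0.30, adjusted p = 0.00671) and Col14a1 (slope 1.24 ± 0.21, adjusted p = 3.94e-04) rose as well. When Mettl14 KO replicate 4 was left out, Pi16 (slope 0.61), Dpt (0.87) and Col14a1 (0.97) were not called, and without Mettl14 KO replicate 5, Mfap4 (1.51) was not. No value of Mfap4 without replicate 4 is given here, and the same filter applied to it.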
